A study of Rattus norvegicus with 23 samples.

Results

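The late-falling genes are those whose transcript level in rat neural stem cells stayed near its starting value for the first 12 h and was strongly reduced by 36 h. They were chosen on CPM, the count of a gene per 1000000 counts of its library. CPM was averaged within each group, then over the soft and stiff substrates at each time, and put on the scale log2(CPM + 1). A gene belongs where this level at 12 h lay within 0.5 of that at 0 h and the level at 36 h was lower than at 0 h by 1.5 or more. In all 266 of 32883 genes met both conditions, out of 18319 genes with at least 1 count, and all 266 passed the filter on low counts that left 11857 genes for testing. The levels at 0, 12 and 36 h averaged over substrates are therefore what chose these genes and are given as a description, whereas the 24 h libraries and the difference between substrates were not part of the choice.

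The cells were wild-type neural stem cells from the hippocampus of adult female rats, kept on a soft or a stiff substrate for 0, 12, 24 or 36 h. Every group, 0 h included, is labelled with the same mixed differentiation medium, which is DMEM-F12 and N2 to which 1 uM of retinoic acid and fetal bovine serum at 1% had been added. The series is about how such cells sense stiffness as they differentiate. There were 23 libraries, 3 for each substrate and time and 2 for soft at 12 h, each read as tags near the 3' end of polyadenylated RNA. Replicate numbers 1 to 3 come from the sample titles, which do not say whether they stand for separate cultures or animals. The p-values thus measure the spread between libraries, which may be technical. Neither the stiffness in units of pressure nor what was done with the cells by 0 h is given in the sources used here. The count table gives Ensembl identifiers and no names, and of 32883 identifiers 0 were found in the reference table, so the labelled cell type could not be checked against its markers. Genes are therefore described by identifier or by their rank in level among the 266 at 0 h.

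Neural stem cells divide, renew themselves and give rise to neurons, astrocytes and oligodendrocytes. Retinoic acid acts through nuclear receptors that bind DNA and change transcription directly, and serum supplies growth factors and adhesion proteins; together they favour the formation of both neurons and glia. During such a switch some transcripts are lost early and others only after a delay, since a transcript level follows both its synthesis and its decay. Which of these applied to the genes below was not measured.

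Total counts per library ran from 2462360 to 6811157, and 13094 to 14547 genes were detected in each. At 12 h the soft libraries were deeper, at 5428086 and 6519349 counts, than the stiff ones, at 2462360 to 4803755. Of the 266 genes 259 had a count in every library. The other 7 had a count of 0 in some library, and these zeros lay at 36 h in soft replicates 1 and 3 and stiff replicates 1 and 3, which had the 4 lowest totals at that time, 2573665 to 3929521.

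The 266 genes held a steady share of the library until 12 h and lost most of it in the next 12 h. On soft they held 2.81%, 2.72% and 2.80% of all counts at 0 h and 2.78% and 2.64% at 12 h. At 24 h this share was 1.02%, 1.28% and 1.06%, and at 36 h it was 0.630%, 0.816% and 0.764%. On stiff the shares were 2.85%, 2.82% and 2.86% at 0 h and 2.83%, 2.76% and 2.67% at 12 h. They were 1.04%, 1.32% and 1.17% at 24 h and 0.601%, 0.797% and 0.728% at 36 h. All libraries of 24 h lay below all those of 0 and 12 h, and all those of 36 h lay below all those of 24 h. In bulk RNA a lower level per cell and fewer cells that carry the transcript cannot be told apart.

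**Figure D1:**
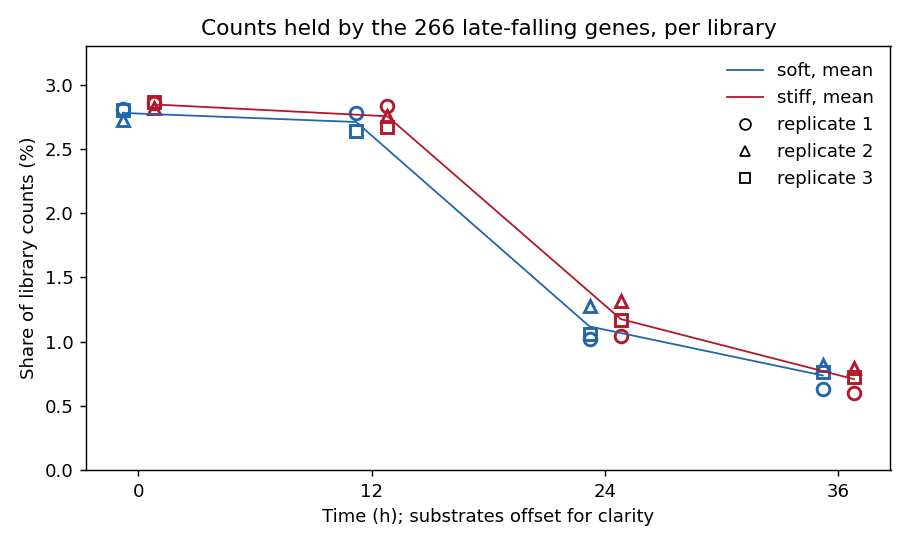
Share of library counts (%) held by the 266 late-falling genes against time (h), 1 point per library with the shape giving the replicate and the colour the substrate; lines join the group means. The shares stay between 2.64% and 2.86% to 12 h, drop to 1.02% to 1.32% at 24 h and reach 0.601% to 0.816% at 36 h.

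At 24 h, a time the choice of genes did not use, the median gene stood at 38.2% of its 0 h level, with quartiles of 33.7% and 43.7%. In all 266 genes the mean level was lower at 24 h than at 12 h, and in 239 (89.8%) it was at most 50% of that at 0 h. The 2 12 h groups and the 2 24 h groups were then compared library by library. In 238 of the 266 genes every 24 h library lay below every 12 h library, against 11.4% of all tested genes. At a Benjamini-Hochberg adjusted p under 0.05 from the quasi-likelihood test of edgeR, 264 genes were called lower at 24 h than at 12 h (99.2%), where the share called lower among all tested genes was 22.6%. With each substrate alone 249 members were called on soft, against 19.1% of all tested genes, and 256 on stiff, against 16.1%. The median log2 fold change was -1.33, against 0.02 over all tested genes. The 12 h libraries in this step also helped to choose the genes, so the count describes the step and is not separate evidence of it.

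The decline went on after 24 h at a slower pace. On the log2(CPM + 1) scale the median step was -1.19 from 12 to 24 h and -0.62 from 24 to 36 h, and the earlier step was the larger in 246 of 266 genes. From 24 to 36 h the mean level fell further in 262 genes and was slightly higher in 4. edgeR's test called 200 genes lower at 36 h than at 24 h (75.2%), where the background was 10.1%, and on each substrate alone 113 on soft (background 4.33%) and 161 on stiff (background 5.29%). The 36 h libraries chose the genes, so nothing is read from these counts. By 24 h the median gene had covered 69.0% of its whole fall from 0 to 36 h, with quartiles of 59.1% and 76.8%. At 36 h the median gene stood at 24.7% of its 0 h level, 141 genes were more than 4-fold lower and 6 more than 8-fold lower.

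**Figure D2:**
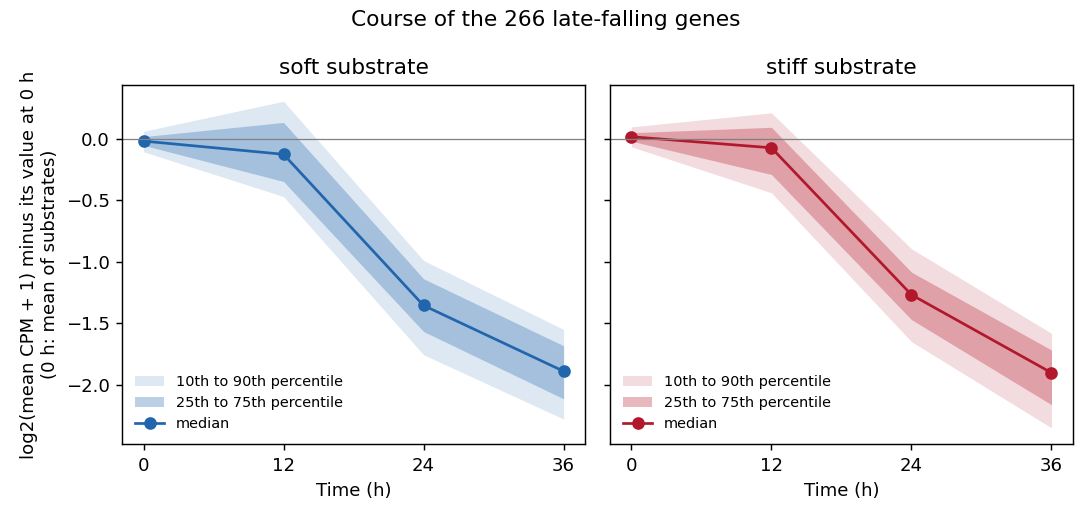
Course of the 266 late-falling genes on soft (left) and stiff (right): log2(mean CPM + 1) minus the 0 h level averaged over substrates, against time (h), with the median as points and 2 shaded percentile ranges over genes. Both panels stay near 0 at 12 h and fall most steeply between 12 and 24 h.

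The genes spanned a wide range of abundance. At 0 h they lay between 2.58 and 1415 CPM with a median of 61.9 CPM, 80 were above 100 CPM and 7 under 5 CPM. The rarest, at 2.58 CPM, had the largest ratio of plain CPM between 0 and 36 h, 18.1-fold, and few counts lie behind it. The most abundant 12 made up 27.2% of the summed level at 0 h. The 67 most abundant genes stood at a median of 99.6% of their 0 h level at 12 h, 41.5% at 24 h and 26.1% at 36 h. For the 67 least abundant genes these medians were 90.6%, 36.9% and 21.8%. The pseudocount in the log2(CPM + 1) scale asks a larger loss of plain CPM from a rare gene than from an abundant one, so the order of these medians at 36 h is partly set by the choice of genes and nothing is read from it.

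The most abundant member, ENSRNOG00000053047, was somewhat higher at 12 h than at 0 h on soft before it fell. On soft it stood at 1452, 1374 and 1390 CPM at 0 h, at 1835 and 1635 CPM at 12 h, at 422, 618 and 459 CPM at 24 h and at 252, 342 and 306 CPM at 36 h. On stiff it stood at 1501, 1364 and 1409 CPM at 0 h, at 1620, 1498 and 1569 CPM at 12 h, at 453, 594 and 512 CPM at 24 h and at 229, 322 and 322 CPM at 36 h. On soft both 12 h libraries lay above all 0 h libraries, on stiff the 2 times overlapped, and on both substrates every 24 h library lay far below. From 0 to 36 h its mean level fell 4.79-fold. No difference between substrates was detected at any time in this gene, with a log2 fold change of -0.19 (SE 0.131, adjusted p = 0.447, edgeR quasi-likelihood test) at 12 h and 0.06 (SE 0.120) at 24 h.

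The member with the largest fall on the log2(CPM + 1) scale, ENSRNOG00000061536, was rarer, ranking 222 by 0 h level. On soft it stood at 15.1, 17.8 and 17.4 CPM at 0 h, at 15.1 and 11.5 CPM at 12 h, at 1.20, 2.35 and 3.21 CPM at 24 h and at 0.890, 0.629 and 1.94 CPM at 36 h. On stiff it stood at 18.5, 18 and 17.2 CPM at 0 h, at 11.9, 15.4 and 8.05 CPM at 12 h, at 3.2, 2.66 and 1.84 CPM at 24 h and at 0.509, 0.961 and 1.70 CPM at 36 h. Its mean fell 15.7-fold from 0 to 36 h, and all 24 h libraries lay below all 12 h libraries. As few as 2 counts lie behind the lowest of its values, so the size of this fall is imprecise. The 12 members with the largest fall were 5.54-fold to 15.7-fold lower at 36 h and had covered 52.1% to 83.8% of their fall by 24 h. The 12 most abundant members were 2.89-fold to 4.79-fold lower and shared 0 genes with them.

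**Figure D3:**
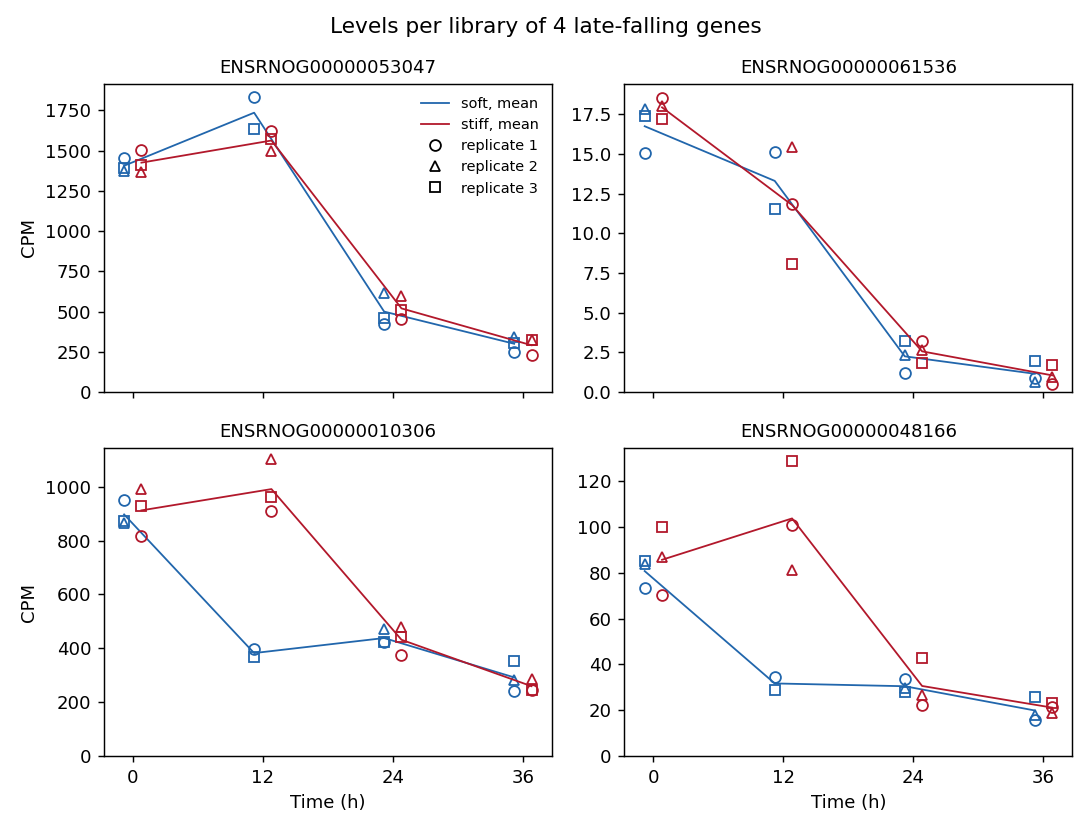
CPM per library of 4 late-falling genes against time (h), with colour for the substrate, shape for the replicate and lines through the group means. The upper pair follows 1 course on both substrates, while in the lower pair the soft libraries are already at 28.8 to 397 CPM at 12 h, near their 24 h level, where the stiff libraries are still at 81.2 to 1101 CPM.

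Other abundant members showed the same course with differences before 24 h. The member ranking 3 by 0 h level was at 766 ± 52.1 CPM on soft and 816 ± 56.1 CPM on stiff at 0 h (SD, n = 3 each) and at 284 ± 33.0 and 282 ± 23.9 CPM at 24 h. At 12 h it was already lower than at 0 h in every library, at 546 and 598 CPM on soft and 550 ± 33.5 CPM on stiff (SD, n = 3), and of all members it lay nearest the lower limit of the 12 h window. By 24 h it had completed 91.1% of its fall. The member ranking 4 was at 642 ± 31.7 CPM on soft at 0 h (SD, n = 3), higher at 931 and 708 CPM at 12 h, and at 274 ± 29.5 CPM at 24 h (SD, n = 3). On stiff it was at 676 ± 17.9, 828 ± 119, 281 ± 18.3 and 155 ± 35.5 CPM at the 4 times (SD, n = 3 each). The member ranking 5 hardly moved before the fall, at 618 ± 26.9 CPM on soft at 0 h (SD, n = 3), 615 and 672 CPM at 12 h and 238 ± 26.1 CPM at 24 h (SD, n = 3).

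The members differed in how much of their fall they had covered by 24 h. Of the 266 genes 93 were higher at 12 h than at 0 h and 173 lower, within the window that chose them. The 93 had covered a median of 59.5% of their fall by 24 h and the 173 a median of 73.3%. The whole fall was of like size, at medians of -1.88 and -1.91. The 12 h level that made this split also shapes the shares covered by 24 h, so they are a description. Among members of at least 10 CPM at 0 h, the one ranking 16 by 0 h level had covered the least by 24 h, 17.5%. It was also the member nearest the upper limit of the 12 h window. On soft it was at 400, 308 and 310 CPM at 0 h, at 523 and 439 CPM at 12 h, at 308, 282 and 224 CPM at 24 h and at 99.6, 136 and 107 CPM at 36 h. Its soft 24 h libraries reached up to those of 0 h. On stiff it went from 326 ± 23.6 to 455 ± 28.2, 279 ± 13.8 and 110 ± 32.2 CPM (SD, n = 3 each). There every 24 h library, at 292 CPM or less, lay below every 0 h library, at 312 CPM or more. At the other end, the member ranking 78 had covered 102.6% by 24 h. On soft it was at 110 ± 9.32 CPM at 0 h (SD, n = 3), 83.5 and 75.8 CPM at 12 h, 24.6 ± 3.78 CPM at 24 h and 29.5 ± 0.748 CPM at 36 h (SD, n = 3 each). On stiff it was at 95.1 ± 17.8, 69.4 ± 9.30, 30.4 ± 5.60 and 27.4 ± 6.03 CPM at the same times (SD, n = 3 each). Its mean thus rose after 24 h on soft and not on stiff.

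The genes just inside and just outside the limits did not differ by much. The 3 members nearest the limit of the fall had values of -1.509, -1.514 and -1.515, and the 3 nearest genes outside it had -1.499, -1.497 and -1.497. At 12 h the lowest members lay at -0.50, -0.49 and -0.49 and the nearest genes below at -0.52, -0.53 and -0.53. The highest members lay at 0.49, 0.45 and 0.42 and the nearest genes above at 0.56, 0.58 and 0.59, and these 3 were all there were. The number of genes thus follows the limits: within the same 12 h window 123 further genes fell by 1.25 to 1.5.

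The course was next compared between substrates. Applied to each substrate alone, the same conditions were met by 241 genes on soft and 288 on stiff. Of these, 194 were on both lists, 80.5% of the soft list and 67.4% of the stiff list. The 2 lists come from separate libraries. On soft 28 of the 266 members lay outside the 12 h window and 24 missed the fall, and on stiff 17 and 15. The median member had covered 71.6% of its fall by 24 h on soft and 66.9% on stiff. The 266 genes share their libraries and are not independent replicates. Across them the step from 12 to 24 h on soft and that on stiff had a Pearson correlation of 0.32. For the steps from 0 to 12 h and from 24 to 36 h it was 0.35 and 0.47. The 0, 12 and 36 h levels in these steps also chose the genes, so the values are a description.

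At 0, 24 and 36 h no member was called between soft and stiff. The quasi-likelihood test of edgeR called 0 of 266 members at 0 h, where 0% of all tested genes were called. It called 0 members at 24 h, again with 0% of all tested genes called. At 36 h it called 0 members, against 0.0675% of all tested genes. An unadjusted p under 0.05 was reached by 2, 11 and 17 of the 266 members at 0, 24 and 36 h. Of all 11857 tested genes 431, 358 and 835 reached it, so nothing is read from these counts. DESeq2 also called 0 members at these 3 times. The differences were small in most members, with 90% of the log2 fold changes between -0.16 and 0.27 at 0 h, between -0.27 and 0.45 at 24 h and between -0.52 and 0.47 at 36 h. For all tested genes these ranges were -0.47 to 0.44, -0.39 to 0.42 and -0.50 to 0.48. More than 2-fold apart were 0 members at 0 h, 1 at 24 h and 6 at 36 h.

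Small shifts of the members as a whole were seen within replicate numbers. At 24 h the summed level on stiff was above that on soft by 2.17%, 3.26% and 10.3% in replicates 1, 2 and 3. At 36 h it was lower on stiff, with differences of -4.69%, -2.37% and -4.71%. At 0 h it was above by 1.58%, 3.45% and 2.16%. All 3 replicates had the same sign at each of these times. At 12 h it was above by 1.90% and 1.25% in replicates 1 and 3. Without regard to replicate number, the soft and stiff libraries overlapped in summed level at 24 and 36 h and not at 0 h. The differences within replicate numbers were not tested. Gene by gene, 182 members (68.4%) had a higher fitted level on stiff at 24 h, where all tested genes gave 49.2%, and the median log2 fold change was 0.07. At 36 h the higher side held 39.8% of members and 48.3% of all tested genes, with a median of -0.04. These genes share libraries, so the counts describe the libraries and carry no test.

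**Figure D4:**
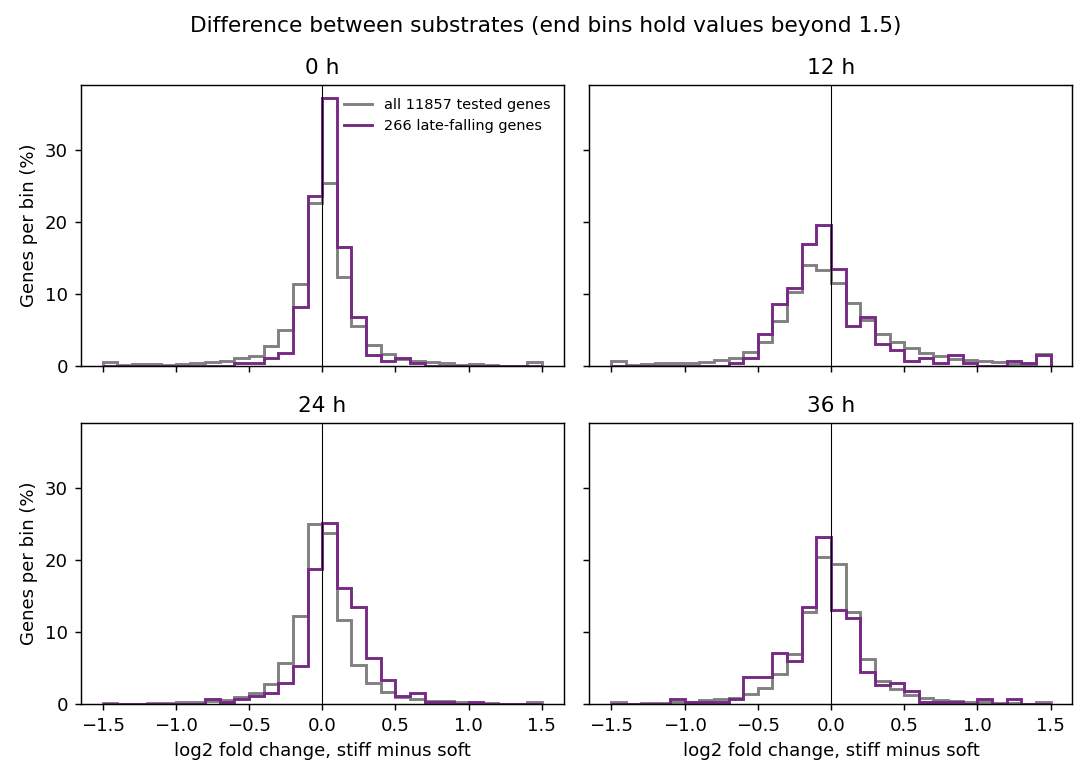
Distribution of the log2 fold change between substrates (stiff minus soft) at each time, as the percentage of genes per bin for the 266 late-falling genes and for all 11857 tested genes; the outermost bins hold all values beyond 1.5. The members centre on 0.04, -0.06, 0.07 and -0.04 at 0, 12, 24 and 36 h. At 12 h a tail lies to the right in the members and in all tested genes. The 0.95 quantile there is 0.63 for the members and 0.84 for all tested genes.

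At 12 h 17 members differed between substrates, 15 higher and 2 lower on stiff. This is 6.39% of the members, close to the 6.6% of all tested genes called at that time, so the share is not a result about the members. By direction 5.64% were called higher and 0.752% lower on stiff, where all tested genes gave 5.36% and 1.24%. The count rests on few libraries: it was 10 without soft 12 h replicate 1, 7 without soft 12 h replicate 3, and 11 each without stiff 12 h replicate 1 or replicate 2. Where 1 soft library was left, it was assumed to vary like the other groups. The soft 12 h libraries were also the deeper ones, and the part of depth in these calls was not tested.

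In the 15 members higher on stiff, the soft level had already dropped at 12 h. They stood at a median of 55.6% of their 0 h level on soft at 12 h, ranging from 38.8% to 84.4%, and at a median of 104% on stiff. At 24 h the medians were 42.1% on soft and 35.9% on stiff, and at 36 h 23.8% and 20.6%. In all 15 both soft libraries lay below all 3 stiff libraries at 12 h, though the genes were chosen for that difference. From 0 to 12 h 13 of the 15 were called as fallen on soft and 0 on stiff, where the shares called lower among all tested genes were 13.9% and 9.75%. The 0 to 12 h step helped choose the members, and nothing further is read from those 2 counts. In 13 of the 15 the soft libraries taken alone would have missed the 12 h window, and nothing is read from this either, since the 15 were picked for a low soft level beside stiff at that time. Between 12 and 24 h the mean level on soft was lower at the later time in 11 of the 15, so some did not go down further over that step.

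ENSRNOG00000010306, ranking 2 by 0 h level, had the smallest p-value. On soft it was at 951, 865 and 874 CPM at 0 h, 397 and 368 CPM at 12 h, 422, 471 and 422 CPM at 24 h and 241, 281 and 355 CPM at 36 h. On stiff it was at 817, 991 and 927 CPM at 0 h, 911, 1101 and 960 CPM at 12 h, 374, 479 and 443 CPM at 24 h and 247, 287 and 246 CPM at 36 h. The soft libraries at 12 h thus lay below those of stiff by a wide gap and at no other time were the substrates separate. The log2 fold change at 12 h was 1.33 (SE 0.121, adjusted p = 3.43e-09, edgeR quasi-likelihood test), against 0.03, -0.02 and -0.15 at 0, 24 and 36 h.

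ENSRNOG00000048166, ranking 101, followed the same course at a lower level. On soft it was at 73.3, 83.6 and 85.2 CPM at 0 h, 34.6 and 28.8 CPM at 12 h, 33.7, 29.8 and 28 CPM at 24 h and 15.7, 18.1 and 26 CPM at 36 h. On stiff it was at 70.3, 86.7 and 99.9 CPM at 0 h, 101, 81.2 and 129 CPM at 12 h, 22.2, 26.6 and 43 CPM at 24 h and 21.4, 19 and 23.2 CPM at 36 h. Here too the substrates overlapped at 0, 24 and 36 h and were apart at 12 h. The log2 fold change at 12 h was 1.67 (SE 0.205, adjusted p = 8.76e-07, edgeR quasi-likelihood test).

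The 2 members lower on stiff at 12 h differed by less. The one ranking 10 by 0 h level was at 485 and 420 CPM on soft and 368, 328 and 307 CPM on stiff at 12 h, a log2 fold change of -0.48 (SE 0.112, adjusted p = 0.00599, edgeR quasi-likelihood test). Its levels at 0 h were 396 ± 31.7 CPM on soft and 372 ± 18.4 CPM on stiff (SD, n = 3 each), between those of the 2 substrates at 12 h. The one ranking 54 was at 168 and 174 CPM on soft and 143, 102 and 126 CPM on stiff at 12 h, a log2 fold change of -0.50 (SE 0.145, adjusted p = 0.0324, same test). At 24 h both genes were far lower on each substrate, the first at 140 ± 3.93 and 157 ± 18.4 CPM and the second at 44.4 ± 8.28 and 42.1 ± 4.95 CPM on soft and stiff (SD, n = 3 each).

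Whether the difference between substrates itself changed over time was tested with 1 F test of the 12, 24 and 36 h differences against that at 0 h. It called 8 members, 3.01% against 3.31% of all tested genes, and 7 of these 8 were among the 17 called at 12 h. The count was 5 without soft 12 h replicate 1, 3 without soft 12 h replicate 3 and 5 without stiff 12 h replicate 1. The eighth gene, ranking 98 by 0 h level, was higher on stiff at 12 h and lower at 36 h, with log2 fold changes of 0.41 (SE 0.159) and -0.60 (SE 0.187) that passed at neither time alone. At 12 h it was at 68.5 and 66.1 CPM on soft and 103, 91.0 and 81.2 CPM on stiff. At 36 h it was at 21.9, 29.6 and 24.5 CPM on soft and 17.3, 20.2 and 12.4 CPM on stiff.

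The replicates differed in how far the members had fallen, and replicate 2 had fallen least. Averaged over substrates, the median change from 0 to 24 h was -1.5, -1.11 and -1.37 in replicates 1, 2 and 3, and from 0 to 36 h it was -2.11, -1.71 and -1.91. A fall of 1.5 or more by 36 h was reached by 260, 205 and 238 members in the 3 replicates. On soft at 24 h the library of replicate 2 was the highest of the 3 in 202 members (75.9%), against 38.5% of all tested genes. On stiff at 24 h it was the highest in 184 (69.2%, against 34.1%), on soft at 36 h in 164 (61.7%, against 32.3%) and on stiff at 36 h in 158 (59.4%, against 31.6%). In 59 members (22.2%) it was the highest in all 4 of these groups, against 2.51% of all tested genes. At 0 h this was not so: replicate 2 was highest in 22.9% of the members on soft and 27.8% on stiff, the smallest share of the 3 replicates on both.

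**Figure D5:**
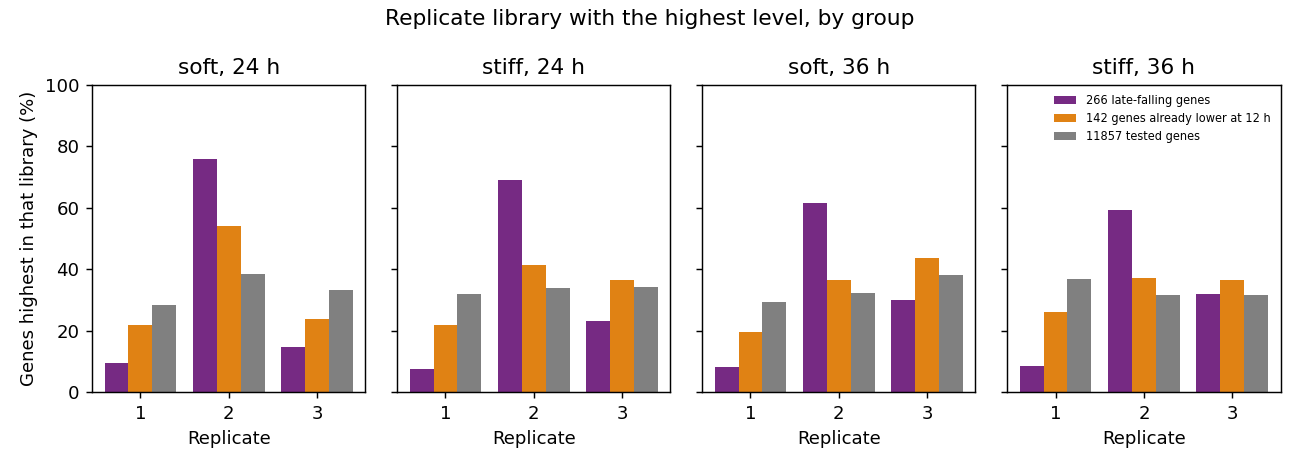
For each group at 24 and 36 h, the percentage of genes whose highest level was in replicate 1, 2 or 3, for the 266 late-falling genes, the 142 genes that fell as far but were already lower at 12 h, and all 11857 tested genes. Replicate 2 leads among the late-falling genes in all 4 groups, with 75.9%, 69.2%, 61.7% and 59.4%.

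Replicate 2 was the deepest of its group on soft at 24 h (6811157 counts), on soft at 36 h (6358462) and on stiff at 36 h (5203157), but the shallowest on stiff at 24 h (5255181, against 6566822 and 6531688). The summed level was highest in replicate 2 in that group as well. The part of depth in the higher levels of replicate 2 was not tested. The spread between replicates was wider at 24 and 36 h than at 0 h, in the late fallers and also in the 142 genes that fell as far but were already lower at 12 h. The median coefficient of variation over members was 8.70% on soft and 8.83% on stiff at 0 h, below the 12.0% and 12.3% of all tested genes. At 24 h it was 19% and 18.4%, against 13% and 11.3%, and at 36 h 22.7% and 22%, against 13.6% and 11.9%. For the 142 genes it went on soft from 11.5% at 0 h to 21.5% at 24 h and 20.3% at 36 h, while on stiff the values were 12.9%, 19.1% and 21.3%, so the wider spread is not particular to the late fallers. The median member was at 61.9 CPM at 0 h, 23.2 CPM at 24 h and 14.7 CPM at 36 h. A coefficient of variation widens as counts fall, and the part of this in the wider spread was not tested. What the replicates differed in besides these values was not tested either.

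Of 411 genes that fell by 1.5 or more by 36 h, the 266 late fallers were the largest class, 142 were already lower by 0.5 or more at 12 h and 3 were higher by 0.5 or more. The 142 were used for comparison. They fell as far by 36 h, with a median of -1.86 against -1.90, but had covered a median of 88.9% of the fall by 24 h against 69.0%. From 24 to 36 h their median step was -0.20 against -0.62, and the level fell further in 112 of 142 genes against 262 of 266. The 12 h level that separates the classes shapes these values, so they are a description. Replicate 2 was highest in all 4 of the 24 and 36 h groups in 5.63% of the 142 genes, against 22.2% of the late fallers. Between substrates at 12 h 9.15% of the 142 were called, against 6.39% of the late fallers, and this difference was not tested.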

How the data were processed

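QuantSeq FWD 3' tag libraries were made from total RNA, per the labels' protocols. The rat build rn6, HTSeq, HISAT2 2.1.0 and FastQC are named in the submitters' processing notes. Annotation release, strand setting and duplicate handling: not given in the sources used here. The deposited file holds whole-number counts by gene, 1 column per library, and these were used without change. Overlapping or near-identical genes may share reads, and tags are not divided by gene length.

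From these counts, CPM used column totals and a pseudocount of 1. Tests used edgeR 4.0.16 (R 4.3.3): 1 quasi-likelihood fit of 8 group means to 23 libraries, TMM factors, filterByExpr (minimum count 10, minimum total 15), and Benjamini-Hochberg adjusted p under 0.05 over 11857 genes. SEs follow from the F statistics. The tests were tried on simulated counts. Within each group all replicate pairs differed by more than sampling noise (chi-square per degree of freedom 2.42 to 9.11), so each library counted once.

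Alternatives were RLE, upper-quartile and unscaled totals, other filters, DESeq2 1.42.0, a replicate block, and each library left out; the upper-quartile and unscaled totals were added after seeing the data. The members and lists were chosen with earlier results of these data known. The rule for named genes and 29 gene lists needed gene names and were not used; the 4 identifiers printed were chosen after their values were seen, as the most abundant member, that with the largest fall, and the 2 with the smallest p among those higher on stiff at 12 h. Figures used matplotlib 3.10.9.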

Additional observations from a re-analysis of the deposited data

Results flagged for a closer look

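For 8 of the 266 late-falling genes the difference between stiff and soft was not the same at all times, by edgeR's quasi-likelihood F test with Benjamini-Hochberg adjustment. This is 3.01% of the members, against 3.31% of all tested genes. Of the 8, 7 were also called between substrates at 12 h, and the count fell to 3 without soft 12 h replicate 3.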

How the results depend on the processing

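The number of late-falling genes, 266, follows its limits and the pseudocount: 94 with a fall of at least 2, 389 with one of at least 1.25, 161 with a 12 h window of 0.25, 391 with a pseudocount of 0.1 and 183 with one of 5. It was 229 to 289 with each replicate number or library left out, where 217 genes stayed members in every run that left out 1 library. Between substrates at 12 h the count of members ran from 7 to 12 with each library of that time left out. The count between times ran from 3 to 11 with each of the 23 libraries left out, and from 3 to 6 over the 12 h libraries. With no filter on low counts 16 members were called between times. Between substrates this setting called 1 member at 24 h and 3 at 36 h. The share of all genes called in this setting is not given here, so nothing is read from these counts about the members. The calls of ENSRNOG00000010306 and ENSRNOG00000048166 at 12 h held under all 12 alternatives, with log2 fold changes of 1.25 to 1.42 and 1.5 to 1.84. The median change to 24 h ran from -1.38 to -1.29 and the median share of the fall from 66.6% to 71.7% with each library left out. Same-numbered soft and stiff libraries had correlated deviations from their group means of -0.01 to 0.17, above 0.1 in 5 of 11 pairs, and those of different numbers did not exceed 0.08. Deviations from a group mean sum to 0, so the values of same-numbered and different-numbered pairs depend on each other. At 12 h, with 2 soft libraries, those of 1 soft library are those of the other with the sign reversed. Of 11 soft libraries 9 correlated best with their own number, at most a weak hint from the data that the numbers may pair the samples. The labels do not say so and not every pair exceeded 0.1, so the block was kept as an alternative. With the replicate block 20 members were called at 12 h, 11 between times, 265 between 12 and 24 h and 209 between 24 and 36 h. The shares of all tested genes called with the block are not given here, so nothing is read from these counts about the members. Depth limits the rarest members at 36 h, where up to 5 of 266 had a count of 0 in a library. The cause of the counts that moved was not tested.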
